A study of Mus musculus with 2 samples.

Results

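The peptide hormone and neuropeptide genes Ins1, Ins2, Iapp, Gcg, Npy, Sst, Ppy, Pyy, Ghrl and Cck were examined in MIN6 cells, a mouse insulinoma line with beta-cell features. They were picked by gene symbol, with earlier results of these data known. Each symbol had 1 row, which gave 10 genes of the 55466 listed. One culture condition was 25 mM glucose for 1 h and the other was 2.8 mM glucose for 1 h. Cells of both had first been equilibrated at 2.8 mM glucose for 0.5 h in a bicarbonate-buffered salt solution. RNA sequencing gave 1 library per concentration, so no difference below has a replicate error or a test, and each is a difference between 2 libraries. The sources used here do not say whether the RNA came from 1 well or from pooled wells.

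Islet hormones are made as larger precursors that are cut by proteases in the secretory granule and released by regulated exocytosis. In the mouse, insulin is encoded by a pair of genes, Ins2, which is the counterpart of the human gene, and Ins1, a retroposed copy of it. Beta cells store insulin together with amylin, the product of Iapp, whereas glucagon (Gcg), somatostatin (Sst), pancreatic polypeptide (Ppy) and ghrelin (Ghrl) mark the alpha, delta, PP and epsilon cells of the islet. Npy, Pyy and Ppy belong to a single peptide family, and Cck encodes cholecystokinin, a gut and brain peptide that stimulates pancreatic enzyme secretion.

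The levels of Ins1 and Ins2 depend on how sequenced fragments are told apart, so a stretch of both coding sequences is shown first. Over the aligned coding sequences of 324 bases (Ins1) and 330 bases (Ins2), 300 bases were identical, which was 92.6% of the aligned positions without a gap. The stretch below holds the single gap, of 6 bases that are present in Ins2 and missing from Ins1. Lower case marks bases shared by both genes, and capitals mark bases that differ or that the other gene lacks. Both sequences come from the GENCODE transcripts on GRCm38. The Ins1 stretch is at chr19:52264796-52264879 on the plus strand, and the Ins2 stretch is on the minus strand within chr7:142678784-142679361, joined across an intron.

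Ins1: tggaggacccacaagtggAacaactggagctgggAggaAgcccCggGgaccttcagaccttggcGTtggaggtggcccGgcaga

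Ins2: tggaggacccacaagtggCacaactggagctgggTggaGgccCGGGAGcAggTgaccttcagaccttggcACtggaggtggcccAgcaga

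Of the stretches of 31 bases in the Ins1 transcript, 4.55% (47 of 1032) also occur in an Ins2 transcript. For the Ins2 transcripts the share found in Ins1 was between 5.29% and 16.9%. No 31-base stretch of Npy, Iapp, Gcg, Cck, Sst, Ppy or Pyy occurs in an annotated transcript of another gene. Npy, Pyy and Ppy are therefore separable despite their kinship, and their coding sequences were 64.7% (Npy and Pyy), 62.0% (Npy and Ppy) and 60.1% (Pyy and Ppy) identical over positions without a gap.

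The promoters of an abundant gene, Ins1, and of a gene listed at 0, Sst, are shown to set the sequence beside the levels. Each window runs from 250 bases before to 50 bases after the start site and is taken from RefSeq on GRCm38. The Ins1 window is chr19:52264047-52264346 on the plus strand and the Sst window is chr16:23890795-23891094 on the minus strand. Capitals mark exact matches on either strand to GCCATCTG (the E box of insulin genes), CTAATG and TAATTA (A boxes, bound by homeodomain factors such as PDX1), TGACGTCA (the cyclic AMP response element, CRE) and TGCTGAC (a core bound by Maf factors). No marked matches overlap within these windows.

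Ins1: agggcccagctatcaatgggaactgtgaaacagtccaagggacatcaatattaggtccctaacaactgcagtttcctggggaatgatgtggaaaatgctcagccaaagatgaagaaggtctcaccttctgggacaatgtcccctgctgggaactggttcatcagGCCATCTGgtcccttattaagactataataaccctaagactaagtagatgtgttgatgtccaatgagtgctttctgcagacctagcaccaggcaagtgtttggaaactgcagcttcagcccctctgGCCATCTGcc

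Sst: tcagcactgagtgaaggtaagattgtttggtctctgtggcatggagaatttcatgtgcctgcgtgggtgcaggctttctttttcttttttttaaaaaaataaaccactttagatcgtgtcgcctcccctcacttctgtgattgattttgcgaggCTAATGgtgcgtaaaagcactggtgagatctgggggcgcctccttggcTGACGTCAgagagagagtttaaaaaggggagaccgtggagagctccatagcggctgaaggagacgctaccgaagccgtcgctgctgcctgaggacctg

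The Ins1 window held GCCATCTG at 2 places, at -86 to -79 and at 41 to 48, counted from the start site. The motif was present in 1.32% of the 32851 promoter windows in the table. The Sst window held TGACGTCA at -48 to -41 (1.79% of windows hold it) and CTAATG at -96 to -91 (7.36%). Among the windows of the other genes, TGCTGAC was found in those of Cck and Ppy (4.67% of all windows), and TAATTA, present in 5.29% of all windows, in none. The looser E box CANNTG, present in 72.3% of windows and contained in GCCATCTG, occurred 4 times in the Ins1 window, 3 times in each of the Iapp, Gcg and Cck windows, once in the Sst window and in each of the 2 Pyy windows, 1 to 5 times in the 4 Ghrl windows and not in those of Npy and Ppy. The table held windows for 9 of the 10 genes, all but Ins2. These matches describe letters in a window and are not measured sites.

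Levels are given as FPKM, fragments per kilobase of transcript scaled to the size of the library, which allows genes to be compared within a library. Genes with a mean of at least 1 FPKM over both libraries are called expressed, and 12694 genes were. Of the 10 hormone genes, 6 were expressed, and these were among the most abundant transcripts of the cell. Together the 10 genes held 11.7% of the summed FPKM at 25 mM (78411 of 670220 FPKM) and 12.9% at 2.8 mM (90335 of 702489 FPKM). Ins1 and Ins2 alone made up 8.23% at 25 mM and 9.18% at 2.8 mM, and the other 8 genes 3.46% and 3.67%. By comparison, the 37 genes of the mitochondrial genome held 3.83% at 25 mM and 4.07% at 2.8 mM. The sums are not free of poorly estimated short RNAs: Mir1943, a microRNA gene, was listed at 0 at 25 mM and at 5240 FPKM at 2.8 mM, 0.746% of that library's sum.

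**Figure D1:**
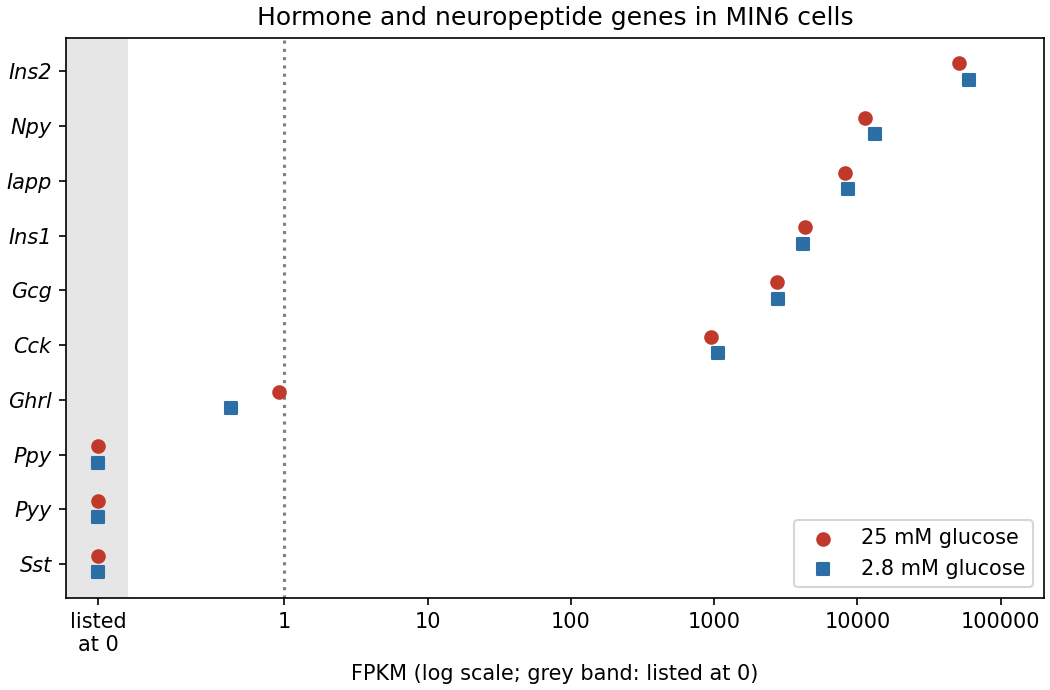
FPKM of the 10 hormone and neuropeptide genes (log axis) in the library at 25 mM glucose (circles) and at 2.8 mM glucose (squares), 1 library each; the dotted line is 1 FPKM. The 6 expressed genes lie between 944 and 60328 FPKM, Ghrl is below 1 FPKM, and Ppy, Pyy and Sst are listed at 0 in both libraries (grey band).

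Ins2 (ENSMUSG00000000215, chr7:142678656-142743381, minus strand, 9 annotated transcripts) was the most abundant gene of both libraries. It stood at 50846 FPKM at 25 mM and 60328 at 2.8 mM, or 7.59% and 8.59% of the summed FPKM. Ins1 (ENSMUSG00000035804, chr19:52264297-52265476, plus strand, 1 annotated transcript) was at 4344 FPKM at 25 mM, rank 7, and at 4194 FPKM at 2.8 mM, rank 10. The FPKM of Ins2 was thus 11.7 times that of Ins1 at 25 mM and 14.4 times at 2.8 mM, both libraries having far more of the Ins2 signal. This ratio rests on the transcript length assigned to Ins1. The GENCODE transcript is 1062 nt long and ends at position 52265476, whereas the RefSeq gene on the same build ends at 52265015, which would leave 601 nt. With the shorter length, Ins1 would stand at 10376 FPKM at 25 mM and 10392 at 2.8 mM, and the ratio of Ins2 to Ins1 would be 4.90 at 25 mM and 5.81 at 2.8 mM. Ins1 would then lie above Iapp in both libraries.

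Iapp (ENSMUSG00000041681, chr6:142298423-142303961, plus strand), which encodes amylin, a peptide that slows gastric emptying and promotes satiety, was at 8198 FPKM at 25 mM and 8637 at 2.8 mM. Its rank was 3 at 25 mM and 4 at 2.8 mM. Ins2 exceeded it by 6.20 times at 25 mM and 6.98 times at 2.8 mM. The gene lies within the span of Slco1a5 on the opposite strand, which was at 0.140 FPKM at 25 mM and 0.0465 at 2.8 mM.

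Npy (ENSMUSG00000029819, chr6:49822710-49829507, plus strand, 1 transcript of 566 nt) encodes neuropeptide Y, which stimulates feeding through hypothalamic circuits and inhibits insulin secretion in the islet. It ranked next after Ins2 in both libraries, at 11314 FPKM at 25 mM and 13303 at 2.8 mM, or 1.69% and 1.89% of the summed FPKM. Its level was 2.60 times that of Ins1 at 25 mM and 3.17 times at 2.8 mM with Ins1 as annotated. Of its family, Pyy (ENSMUSG00000017311, chr11:102106676-102107832) and Ppy (ENSMUSG00000017316, chr11:102099930-102101319), which are neighbours on the minus strand, were both listed at 0 at 25 mM and at 2.8 mM.

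Gcg (ENSMUSG00000000394, chr2:62474530-62483650, minus strand, 3 transcripts), the proglucagon gene that gives glucagon in alpha cells and glucagon-like peptides in the gut, was at 2764 FPKM at 25 mM and 2804 at 2.8 mM. It ranked 12 at 25 mM and 14 at 2.8 mM, at 0.636 times the FPKM of Ins1 at 25 mM and 0.668 times at 2.8 mM. Cck (ENSMUSG00000032532, chr9:121489824-121495694, minus strand, 6 transcripts) was at 944 FPKM at 25 mM and 1068 at 2.8 mM, with ranks of 61 and 57. The glucagon signal therefore exceeded that of cholecystokinin by 2.93 times at 25 mM and 2.63 times at 2.8 mM. In these bulk libraries, fewer cells of a type and less RNA per cell cannot be told apart.

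Among the 6 expressed genes the order of levels, Ins2, Npy, Iapp, Ins1, Gcg and Cck, was the same in both libraries. Npy exceeded Iapp by 1.38 times at 25 mM, the narrowest step in that library, and by 1.54 times at 2.8 mM, where the step from Ins1 to Gcg was narrower. By mean FPKM the genes next to them were mt-Co1 (8133 FPKM at 25 mM and 8651 at 2.8 mM) below Iapp, the translation elongation factor gene Eef1a1 (4250 and 4454 FPKM) above Ins1, and the ATP synthase gene Atp5b (3786 and 4372 FPKM) below Ins1. Gcg lay between mt-Nd1 (3442 and 3739 FPKM) and CT010467.1, annotated as ribosomal RNA (2463 and 3000 FPKM), and Cck between the ribosomal protein genes Rps19 (1003 and 1023 FPKM) and Rpl36 (929 and 1066 FPKM). Ins2 and Npy stood above every other gene in both libraries. Iapp and mt-Co1 exchanged places between the libraries, so those neighbours are not separated here.

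Ghrl (ENSMUSG00000064177, chr6:113716119-113719880, minus strand, 7 transcripts) encodes ghrelin, the acylated peptide that stimulates growth hormone release and appetite. It was at 0.917 FPKM at 25 mM and 0.422 at 2.8 mM, below the level set for expression. Even if every fragment came from its longest transcript of 891 nt, these values would correspond to at most 9.57 fragments at 25 mM and 4.99 fragments at 2.8 mM. Up to 29.0% of the 31-base stretches of a Ghrl transcript are shared with other transcripts, among them that of Gm44033, an overlapping gene model on the opposite strand, at 0.140 FPKM at 25 mM and 0.875 at 2.8 mM. The antisense gene Gm26982 overlaps it as well and was listed at 1.62 FPKM at 25 mM and 1.59 at 2.8 mM. Since it is not known whether strand was used in counting, reads from the stretches that Ghrl and Gm44033 share cannot be told apart. The libraries do not separate the level of Ghrl from that of a handful of fragments. Mboat4, which encodes the acyltransferase that activates ghrelin, was at 0.114 FPKM at 25 mM and 0.394 at 2.8 mM.

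Sst (ENSMUSG00000004366, chr16:23889573-23890958, minus strand, 1 transcript of 721 nt) was listed at 0 in both libraries. A single fragment of Sst would have been worth 0.132 FPKM at 25 mM and 0.118 at 2.8 mM. A value of 0 in files of this kind can also be a failed estimate, which was not tested here. Atp5o, an ATP synthase subunit gene, had a row at 0 in both libraries beside a row under another identifier. The latter stood at 486 FPKM at 25 mM and 520 at 2.8 mM. Sst, Ppy and Pyy had 1 row each, so the Atp5o pair does not bear on their zeros. Ide, the gene of the insulin-degrading enzyme, had 1 row as well and was also listed at 0 in both libraries. Whether any of these single-row zeros is a failed estimate was not tested. The genes Sst, Ppy and Pyy are accordingly described as listed at 0.

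**Figure D2:**
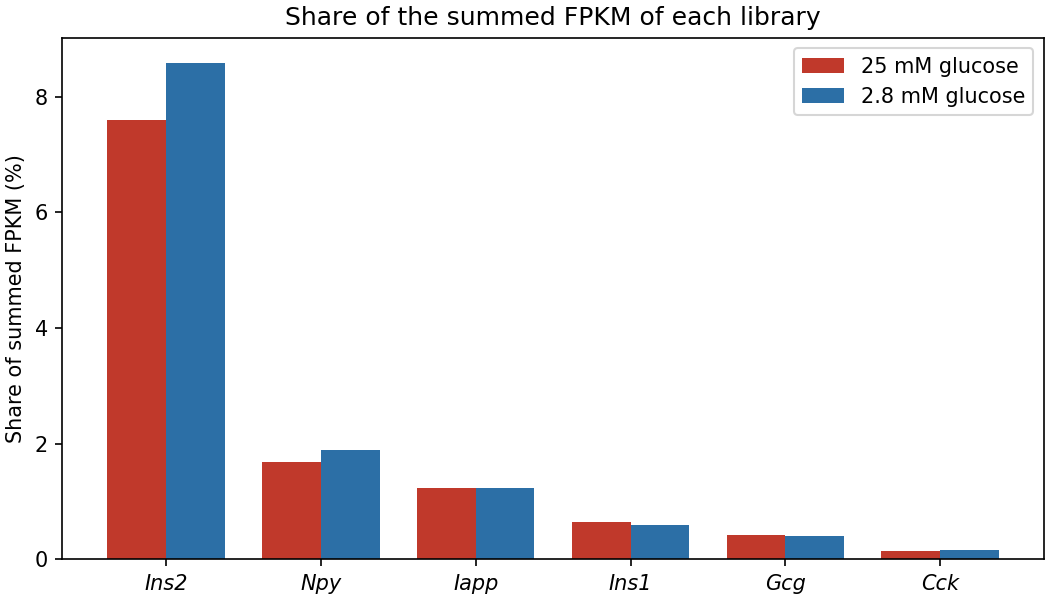
Share of the summed FPKM of each library, in percent, held by the 6 expressed hormone and neuropeptide genes at 25 mM glucose (left bars) and 2.8 mM glucose (right bars), 1 library each. Ins2 holds 7.59% and 8.59%, and each other gene less than 2%.

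The levels were then compared between the glucose concentrations, as the log2 ratio of the level at 25 mM over that at 2.8 mM, after adding 1 FPKM to each, a scale that understates the change of low genes. No expressed hormone gene was at least 1.5-fold apart (0 of 6), where 4.45% of the 12694 expressed genes were (1.95%, or 247 genes, higher and 2.51%, or 318 genes, lower at 25 mM). The largest differences were those of Ins2, with a log2 change of -0.25, and Npy, at -0.23. Cck was at -0.18, Iapp at -0.08, Gcg at -0.02 and Ins1 at 0.05. The median of the 6 genes was -0.13 and that of all expressed genes -0.02. For Ghrl, with its few fragments, the log2 change was 0.43, and it was 0.13 with 5 FPKM added and 0.96 with 0.1 FPKM added.

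Of the expressed hormone genes, 5 were thus lower and Ins1 was higher at 25 mM. In FPKM with the annotated lengths, the insulin genes differed from each other in direction, and Ins1 was a larger part of the insulin signal at 25 mM. With Ins1 ended at the RefSeq position, its FPKM was slightly lower at 25 mM (10376 FPKM, against 10392 at 2.8 mM), so the opposite direction of Ins1 was lost. With both libraries rescaled to the same summed FPKM, the median of all expressed genes moved to 0.04 and the log2 changes were -0.18 for Ins2, -0.17 for Npy, -0.11 for Cck, -0.0074 for Iapp, 0.05 for Gcg and 0.12 for Ins1. The sign for Gcg therefore depended on the scaling, and the signs for the other 5 did not under this rescaling. Among all expressed genes, 11.9% had a lower log2 change than Ins2, 12.9% than Npy and 18% than Cck. Among the 100 genes highest in mean FPKM, which include these 6, 75 were lower at 25 mM, the median log2 change was -0.07, and 7 genes lay below Ins2 and 11 below Npy.

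**Figure D3:**
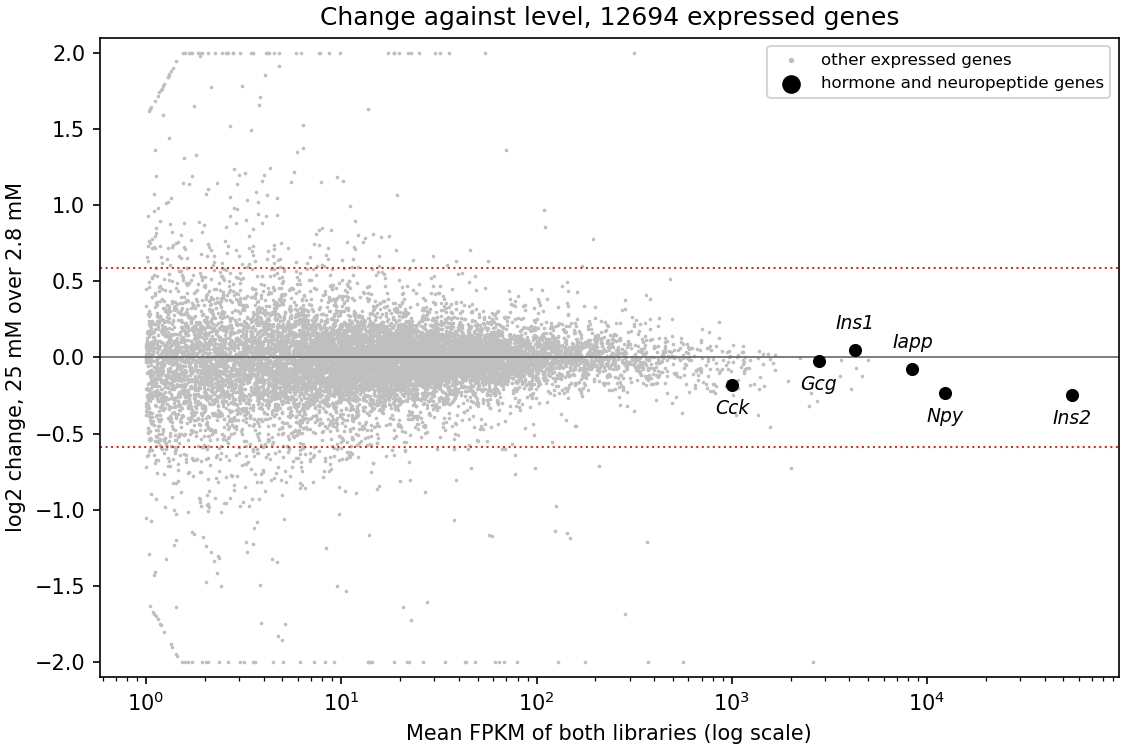
Log2 change, 25 mM over 2.8 mM, against mean FPKM (log axis) for the 12694 expressed genes, 1 library per concentration; dotted lines mark 1.5-fold, and 85 genes past a log2 change of 2 in size are drawn at the edge. The 6 hormone and neuropeptide genes (black) lie at the right and inside the dotted lines, between -0.25 (Ins2) and 0.05 (Ins1).

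Fragment numbers were worked out for genes with 1 transcript, from the steps between low FPKM values. Ins1 had 57803 fragments at 25 mM and 63776 at 2.8 mM, which were 0.344% (exact 95% interval 0.342% to 0.347%) and 0.324% (0.322% to 0.327%) of the library. Npy had 56383 fragments at 25 mM and 72484 at 2.8 mM, which were 0.336% (0.333% to 0.339%) and 0.369% (0.366% to 0.371%). The log2 ratio, without a pseudocount, had an exact interval of 0.03 to 0.07 for Ins1 and of -0.25 to -0.22 for Npy. These intervals cover counting error only, with the fitted fragment totals and lengths taken as exact, and they compare the libraries and not the conditions.

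The fragment lengths fitted to the libraries differed, 270 nt at 25 mM and 290 nt at 2.8 mM. By the formula of the fit, such a difference enters the FPKM of short transcripts most. The fit used transcripts of at least 800 nt, so values for shorter ones such as Npy are extrapolated. No error of the fitted lengths was computed. FPKM divides by the number of places a fragment can start, which grows when fragments are shorter, and more so for a transcript that is itself short. Counted as a share of all fragments, without the length, the log2 change of Npy was -0.13 in place of -0.23, and that of Ins1 was 0.09 in place of 0.05. Removing the length raises the log2 change of any transcript, because the fragments fitted at 25 mM were the shorter. The rise is thus fixed by construction, and no median of all expressed genes was computed on this scale. For Ins2 the division of fragments among its transcripts is not known. If all came from its transcript of 478 nt, the log2 change of its share of fragments would be -0.10, and over its transcripts of 455 to 918 nt it would range from -0.08 to -0.20. For Cck the same range was -0.12 to 0.06 over transcripts of 403 to 799 nt, and for Gcg it was 0.02 to 0.06 over its 3 transcripts. Iapp was at -0.02 with its transcript of 839 nt. The shorter annotated transcripts of Ins2 (259 and 297 nt), Iapp (294 nt) and Cck (385 nt) were left out of this reckoning. The signs for these genes therefore hold only for the lengths used. Over those lengths Ins2, Npy and Iapp had a lower share of fragments at 25 mM. Gcg had a higher share, and the sign for Cck depended on the transcript.

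The log2 changes in FPKM were also read by transcript length. Among expressed protein-coding genes, the 76 with a longest transcript from 300 to below 600 nt had a median log2 change of -0.15, with 67.1% below 0. The 405 genes from 600 to below 1000 nt had a median of -0.05, with 63% below 0, and the 1767 genes from 1000 to below 2000 nt one of -0.0056, with 51.3% below 0. The 4474 genes from 2000 to below 4000 nt were at -0.0037, with 50.9% below 0, and the 4233 genes of 4000 nt or more at -0.03, with 59% below 0. By its longest transcript, Npy falls in the shortest of these classes, and Ins2, Iapp and Cck fall in the next. Ins2 also has transcripts of 455 to 583 nt, and Cck of 403 and 478 nt, which are as short as the shortest class. The part of fragment length in the differences of Ins2, Iapp and Cck was not tested.

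**Figure D4:**
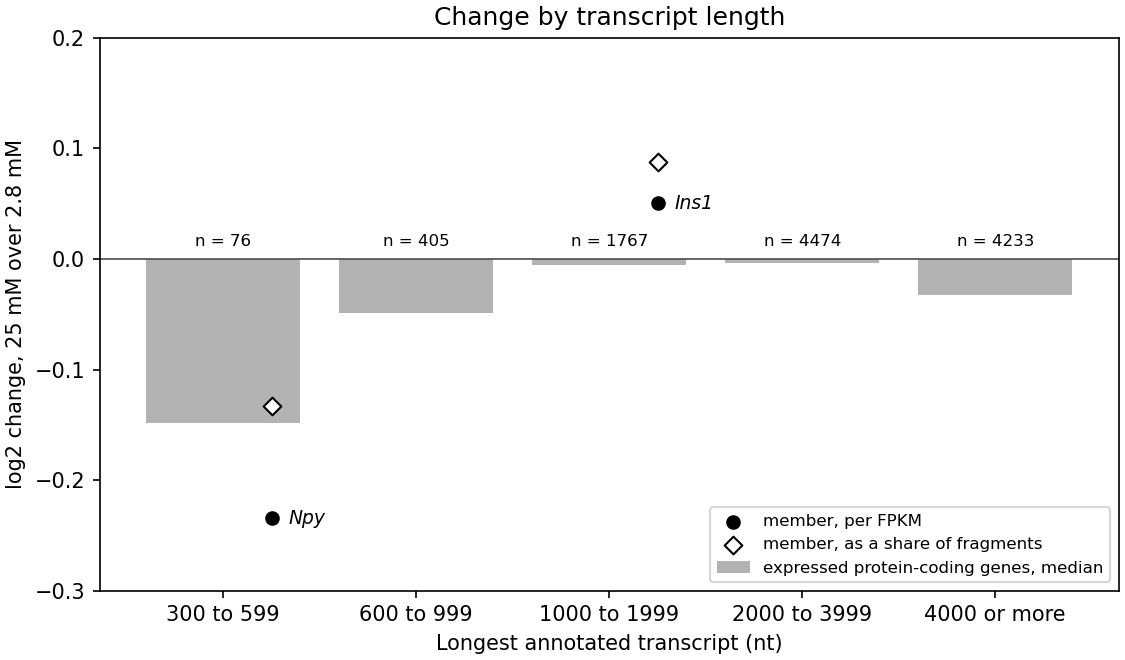
Median log2 change, 25 mM over 2.8 mM, of expressed protein-coding genes by the length of their longest transcript (grey bars, number of genes above each), with Npy and Ins1 in FPKM (filled circles) and as a share of all fragments (open diamonds), 1 library per concentration. The shortest class has the lowest median, -0.15. Both genes have higher values as a share of fragments than in FPKM, as any transcript does with shorter fitted fragments at 25 mM.

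The levels around the hormone genes were described from lists of their processing enzymes, related precursors, regulators and receptors. Of 14 genes for prohormone processing, 9 were expressed and none was at least 1.5-fold apart, where 4.45% of all expressed genes were. At that share, lists as short as these can hold none, so finding none says little about them. The most abundant were Cpe, for carboxypeptidase E, which trims the ends left by the convertases (1683 FPKM at 25 mM and 1661 at 2.8 mM), Pcsk2, for prohormone convertase PC2 (324 and 323 FPKM), and Scg5, for the chaperone of PC2 (258 and 254 FPKM). Pcsk1, for the convertase PC1/3 that acts on proinsulin, stood at 101 FPKM in both libraries. The median log2 change of the list was 0.0095. Over the 9 expressed genes the log2 changes ran from -0.31 (Pcsk4, a convertase gene at 1.80 FPKM at 25 mM and 2.46 at 2.8 mM) to 0.15 (Pcsk1n, for an inhibitor of PC1/3, at 68.8 and 61.8 FPKM).

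Of 73 other peptide hormone and neuropeptide precursors, 14 were expressed and 33 were listed at 0 in both libraries. Their sum was 1187 FPKM at 25 mM and 1152 at 2.8 mM, against 78411 and 90335 FPKM for the 10 hormone genes. Igf2, for insulin-like growth factor 2 (761 and 728 FPKM), was the highest, followed by the opioid precursor gene Pdyn (243 and 242 FPKM) and Adm2 (57.6 and 54.6 FPKM), for a peptide of the calcitonin family to which amylin belongs. Cck was 1.24 times the level of Igf2 at 25 mM and 1.47 times at 2.8 mM, so the 6 expressed hormone genes were above each precursor listed. The list holds no granin genes, and 2 of those were above some of the 6. Scg2 (4938 FPKM at 25 mM and 5001 at 2.8 mM) was above Gcg and, with Ins1 as annotated, above Ins1. Chga (1562 and 1575 FPKM) was above Cck. The 10 genes and this list were chosen with earlier results of these data known, so the gap between them can follow from that choice. A single precursor was at least 1.5-fold apart, where 4.45% of all expressed genes were. It was Pth2, for a brain peptide of the parathyroid hormone family, at 0.839 FPKM at 25 mM and 2.08 at 2.8 mM (log2 change -0.74). Of the 14 expressed, 10 were higher and 4 lower at 25 mM, with a median log2 change of 0.04; of all expressed genes, 5793 were higher and 6901 lower.

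Receptors for the encoded peptides were at low levels. Of 24 receptor and receptor-modifying genes, 4 were expressed, and none was at least 1.5-fold apart, where 4.45% of all expressed genes were. Glp1r, the receptor for the glucagon-like peptide cut from proglucagon, was highest at 15.1 FPKM at 25 mM and 14.2 at 2.8 mM. The insulin receptor gene Insr was at 5.28 FPKM in both libraries, and Igf1r was at 2.07 FPKM at 25 mM and 2.20 at 2.8 mM. Ramp2, for a protein that modifies calcitonin family receptors, was at 0.784 and 1.22 FPKM. All of the neuropeptide Y receptor genes on the list (Npy1r, Npy2r, Npy4r, Npy5r and Npy6r) were listed at 0 in both libraries, beside Npy as the gene ranked next after Ins2. The glucagon receptor gene Gcgr was at 0.0533 FPKM at 25 mM and 0.0460 at 2.8 mM, the amylin and calcitonin receptor gene Calcr was listed at 0 at 25 mM and at 0.0158 FPKM at 2.8 mM, and the somatostatin receptor genes Sstr2 and Sstr3 were below 0.4 FPKM in both.

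Of 28 genes that regulate islet hormone genes, 20 were expressed and none was at least 1.5-fold apart, where 4.45% of all expressed genes were. The highest were the homeodomain factor genes Pdx1 (88.0 FPKM at 25 mM and 92.7 at 2.8 mM) and Pax6 (92.5 and 85.5 FPKM) and the insulin activator gene Mafa (87.0 and 77.1 FPKM). Their log2 changes were -0.07, 0.11 and 0.17, and the median of the 20 genes was 0.06. Among regulators with a role in alpha cells, Irx1 and Pou3f4 were listed at 0 in both libraries, whereas Irx2 was at 4.84 FPKM at 25 mM and 4.48 at 2.8 mM.

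**Figure D5:**
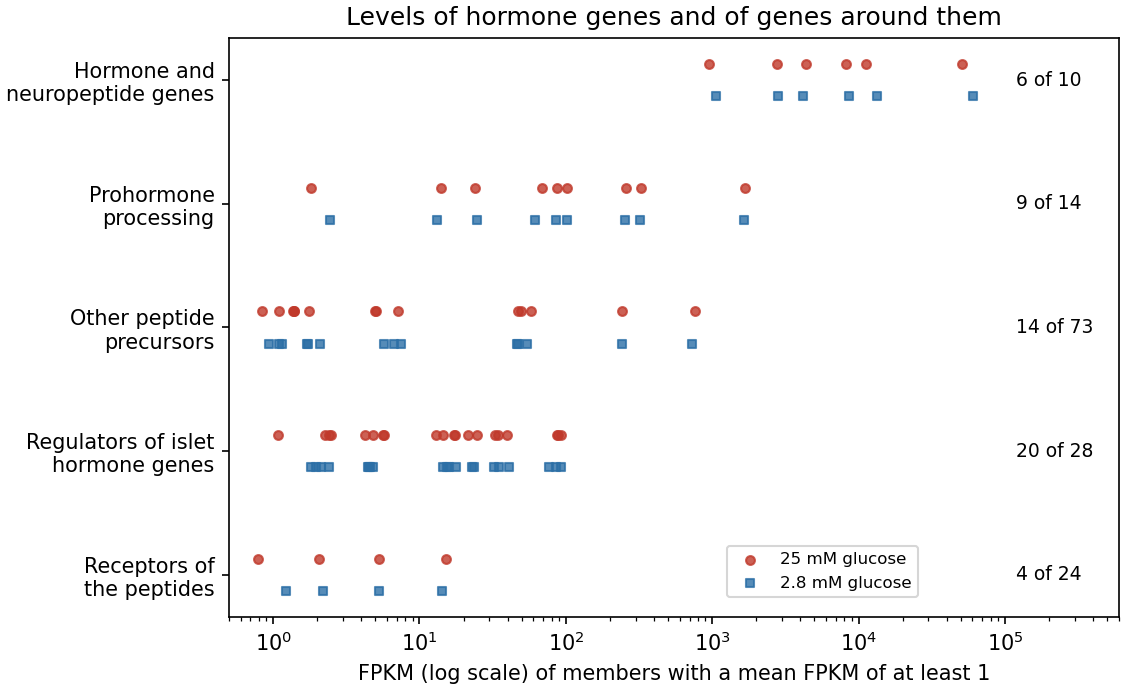
FPKM (log axis) of the expressed members of 5 gene lists at 25 mM glucose (circles, upper row of each) and 2.8 mM glucose (squares, lower row), 1 library each, with the number expressed of the number listed at the right. The 6 hormone genes lie between 944 and 60328 FPKM; of the other lists, only Cpe reaches this range, and the 4 expressed receptor genes lie below 20 FPKM.

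Markers of islet and other pancreatic cell types were read beside these levels. Of the 15 beta-cell markers found, 13 were expressed, Ins1, Ins2 and Iapp among them, but the glucose transporter gene Slc2a2 was at 0.653 FPKM at 25 mM and 0.469 at 2.8 mM, and Ucn3, a marker of mature beta cells, at 0.148 and 0.171 FPKM. Of 14 alpha-cell markers, 8 were expressed, with a summed level of 1084 FPKM at 25 mM and 1164 at 2.8 mM. Most of that sum came from Ttr (756 and 851 FPKM) and Slc38a5 (209 and 196 FPKM), and 5 of the 14 were listed at 0 in both libraries. The delta-cell list had 1 expressed gene of 10, Rbp4 (26.9 and 26.5 FPKM), with Hhex listed at 0, and the PP and epsilon list 1 of 9, Acsl1 (12.5 and 11.9 FPKM). Expressed markers numbered 2 of 15 for acinar cells (list sums of 25.2 and 23.1 FPKM), 3 of 8 for ductal cells (412 and 395 FPKM, mostly Spp1) and 1 of 15 for stromal, endothelial and immune cells (4.29 and 5.63 FPKM). Whether other cells contributed to the level of Gcg was not tested.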

How the data were processed

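FPKM values were made by the authors and deposited as 1 value per gene and library, per the file headers. The submitters' processing notes name HISAT2, Cuffdiff and GRCm38; for versions, settings, library kit, strandedness and annotation, the sources used here give nothing. An empty row (1 per table) was not used. The 2 libraries were grouped by the treatment label.

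FPKM, rank, share of summed FPKM and log2 change (pseudocount 1, expressed at a mean of at least 1 FPKM, threshold 1.5-fold) were computed on the whole table, without a test. Named were all 10 genes, their neighbours in mean FPKM, the 3 most abundant genes of each list and each list gene at least 1.5-fold apart. Pcsk1, Ramp2, Mboat4, Ucn3, Slc2a2, Ttr, Slc38a5, Scg2, Chga and Mir1943 were named after their values were seen. So were the genes at or near 0 and the cell type markers. The genes and lists were chosen with earlier results of these data known. GENCODE M21 (GRCm38) held 99.6% of the gene identifiers and supplied coordinates and transcripts.

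Total fragments and mean fragment length were fitted to the FPKM steps of genes with 1 transcript of at least 800 nt. This gave 16780000 fragments at 25 mM, with 95.3% of 1934 low values within 0.1 of a whole fragment, and 19670000 at 2.8 mM, with 95.7% of 2117. The fit and the fold calls were also run on data simulated with the same formula and 1 length per gene. That checks the code, and not the division of fragments among transcripts or differences as small as those reported. Intervals are exact Clopper-Pearson. FPKM depends on the annotated length and on how fragments are divided among transcripts. Promoters came from RefSeq (GRCm38.p6). Coding sequences were aligned globally with Biopython 1.88. Other software was pandas 2.3.3 and NumPy 2.4.6 (Python 3.11.15), with SciPy 1.17.1 for intervals and matplotlib 3.10.9 for plots.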

Additional observations from a re-analysis of the deposited data

How the results depend on the processing

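No expressed hormone gene was at least 1.5-fold apart under any of the alternatives run (pseudocounts of 0.1 and 5, 3 rescalings, a minimum mean of 5 FPKM, no filter, summed rows, and for the count a threshold below and one above 1.5-fold). Of these, the pseudocount of 5, the minimum mean, the summed rows and the higher threshold could not have added a gene to the count. The median log2 change of -0.13 was -0.059 with equal sums, -0.078 with equal sums over the other genes, -0.11 when centred on the median and -0.075 without a filter, which adds Ghrl. The share of the 10 genes was 12.2% at 25 mM and 13.4% at 2.8 mM without mitochondrial genome genes, and 11.9% and 13.2% without genes under 300 nt, where the smaller sum raises it by construction. The ratio of Ins2 to Ins1 was 4.90 at 25 mM and 5.81 at 2.8 mM with Ins1 ended at the RefSeq position. The last of these, the limit of 300 nt and the fragment shares were chosen after the data were seen. With equal sums and with equal sums over the other genes, which shift all genes alike, Gcg changed sign (0.05 and 0.03), whereas Ins2, Npy, Iapp, Ins1, Cck and Ghrl did not; the pseudocounts and the summing of rows could not change a sign, and the RefSeq end turned Ins1 slightly negative (10376 FPKM at 25 mM, against 10392 at 2.8 mM). Across all expressed genes, the counts at least 1.5-fold higher and lower were 364 and 524 after adding 0.1 FPKM, 93 and 91 after adding 5 FPKM, 76 and 129 at a mean of at least 5 FPKM, 442 and 550 without a filter, 300 and 262 with equal sums, and 283 and 279 with equal sums over the other genes. No paired analysis was possible because each glucose concentration had a single library.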
